A study of Mus musculus with 6 samples.

Results

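Multiciliated1 is 1 of 16 cell clusters that the authors named in cultures of mouse tracheal epithelium, and it held 1108 of the 23871 cells deposited. Its members were taken by that name alone. Primary tracheal epithelial cells of C57BL/6 mice aged 12 weeks were grown at air-liquid interface, a culture in which basal cells form secretory and multiciliated cells. The cultures came from 3 *WT/WT* mice and from 3 *MIS/MIS* mice homozygous for a missense allele of *Dnaaf5* (C498F), a gene whose product helps to assemble the dynein motors of motile cilia. Transcripts were captured in droplets (10x Genomics), and each was counted once through its unique molecular identifier (UMI). Levels are written in CPM: a gene's summed UMIs in the cells of 1 mouse and cluster, scaled to a common total, as the mean ± SD over mice. The *WT/WT* mice 1, 2 and 3 held 82, 124 and 98 cells of the cluster. The *MIS/MIS* mice MT1301, MT1306 and MT1383 held 113, 87 and 604, so that MT1383 gave more cells than the other 5 mice together. The median cell had 32469 UMIs, against 26359 in Multiciliated3 and 33387 in Secretory1. No doublet caller was run, 70 of the 1108 cells had more than 7500 genes, the limit that the methods give for possible doublets, and 5 cells carried a barcode that also occurred in another library.

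In the airway, secretory cells release mucins, secretoglobins and antimicrobial proteins and metabolise foreign compounds. Multiciliated cells carry motile cilia built on the axoneme, a microtubule scaffold with dynein arms and radial spokes, and *Foxj1* encodes the transcription factor that switches on the genes of motile cilia. Basal cells give rise to secretory cells, and secretory cells can themselves become multiciliated.

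The name multiciliated held for only a portion of the cluster. The authors' clustering at finer resolution (24 clusters) put 502 of the 1108 cells in finer cluster 11 and 600 in finer cluster 12, with 6 cells elsewhere. Finer cluster 11 also contained 191 Secretory1 cells among its 695 cells, whereas finer cluster 12 contained 10 Multiciliated3 cells among its 610. UMIs of 48 axonemal genes, the fixed axoneme list without its 2 tubulins, were summed in each cell and scaled to 10000 UMIs. The median was 3.82 in finer cluster 11 cells and 58.5 in finer cluster 12 cells, against 1.47 in Secretory1 and 133 in Multiciliated3. In Multiciliated2, whose cells spread from 1.42 to 157 (5th to 95th percentile), it was 70.1. Of the 502 cells in finer cluster 11, 270 (53.8%) lay at or below the 95th percentile of Secretory1, which was 4.05. None of the 600 cells in finer cluster 12 did, and 199 of them (33.2%) reached the 5th percentile of Multiciliated3, which was 70.5. The median cell had 32545 UMIs in finer cluster 11 and 32453 in finer cluster 12. Genes per cell were not matched. Their median, as mean ± SD over mice, was 6739 ± 456 in finer cluster 12 and 6141 ± 559 in finer cluster 11. It was 6295 ± 564 in Multiciliated3 and 5741 ± 591 in Secretory1, and in each mouse finer cluster 12 had the most. The part of doublets in this was not tested. These finer clusters were made from the same counts, so all differences between them, and between Multiciliated1 and other clusters, are descriptions without a test.

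**Figure D1:**
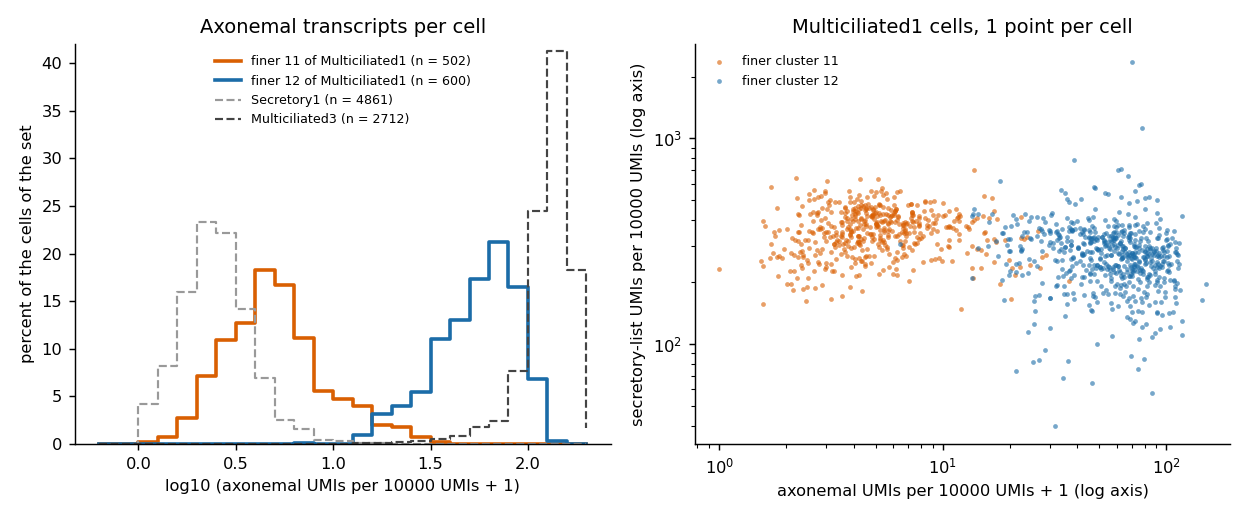
Left, distribution of axonemal UMIs per 10000 UMIs (log10 of the value + 1) over cells of finer clusters 11 and 12 of Multiciliated1 (solid) and of Secretory1 and Multiciliated3 (dashed), as a percent of each set. Right, the same measure against UMIs of the secretory list in each Multiciliated1 cell (both axes log): finer cluster 11 has a median of 3.82 axonemal UMIs and finer cluster 12 of 58.5, while the secretory medians are 359 and 274.

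The secretory list, 28 genes of airway secretory cells, separated the finer clusters less. Its median was 359 UMIs per 10000 in finer cluster 11 and 274 in finer cluster 12, between 489 in Secretory1 and 175 in Multiciliated3. Secretory2 had 273 and Multiciliated2 69.7. *Nupr1*, a member of the list, is not particular to secretory cells and weighs in this sum. It was at 7115 CPM in finer cluster 11, 6993 in finer cluster 12, 8967 in Secretory1 and 6247 in Basal1. In Multiciliated3 it was at 9656 CPM, where the whole list had a mean of 18778. Across cells of a mouse, axonemal and secretory UMIs per 10000 correlated with r between -0.50 and -0.12 in the whole cluster (6 mice). Within finer cluster 11 the range was -0.12 to 0.30, positive in 4 mice, and within finer cluster 12 it was -0.24 to 0.14. The cells of each value share a library.

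Of the 6 marker genes, 4 were higher in Multiciliated1 than in any other cluster. *Ces1f*, a carboxylesterase that hydrolyses esters, was at 279 CPM in *WT/WT* mouse 1, 225 in mouse 2 and 309 in mouse 3, and at 279, 269.6 and 318 CPM in MT1301, MT1306 and MT1383. The mean of 279.9 ± 32.9 (n = 6 mice) was 10.4 times that of Secretory1 (26.8 ± 6.70), the next cluster, and the mice of these clusters did not overlap. It was at 9.12 ± 5.50 CPM in Multiciliated3. *S100g*, the calcium-binding protein calbindin-D9k, was at 145, 400.2 and 449 CPM in the *WT/WT* mice and at 336, 295 and 272 CPM in the *MIS/MIS* mice, with *WT/WT* mouse 1 the lowest. Its mean of 316 ± 107 was 4.93 times that of Multiciliated3 (64.1 ± 37.1), where the highest mouse had 129 CPM.

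*Agr2*, a protein disulfide isomerase needed to fold mucins, had a mean of 1034 ± 324 CPM, 2.32 times that of Multiciliated2 (446 ± 86.5), and the lowest mouse (634) lay above the highest of Multiciliated2 (607). *Itln1*, a lectin that binds microbial sugars, had 138 ± 39.2 CPM, 2.51 times that of Multiciliated3 (55.0 ± 37.8). Here the clusters overlapped between mice, since *WT/WT* mouse 3 had 103 CPM in Multiciliated3 and *WT/WT* mouse 2 had 87.9 in Multiciliated1, although within each of the 6 mice Multiciliated1 was higher. *Reg3g*, a bactericidal C-type lectin, did not lead in Multiciliated1. It had 25492 ± 7211 CPM there, 38266 (27883 to 58875) in Secretory1 and 2139 ± 1164 in Multiciliated3. *Foxj1* was lower than in the other multiciliated clusters, with 70.8 ± 18.3 CPM against 717 ± 68.7 in Multiciliated2, 346 ± 16.002 in Multiciliated3 and 187 ± 25.8 in Multiciliated4. Secretory1 had 1.88 ± 0.418 CPM.

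The markers did not fall alike in the finer clusters. *Foxj1* was at 6.63 ± 2.49 CPM in finer cluster 11, in no mouse above 9.90, and at 129 ± 12.1 in finer cluster 12. Cells of Basal1, a basal cluster, had 5.05 ± 1.65 CPM. *S100g* was also mainly a transcript of finer cluster 12, at 553 ± 252 against 63.5 ± 16.4 CPM. *Ces1f* was higher in finer cluster 11 (386 ± 41.2) than in finer cluster 12 (184 ± 41.8), and *Reg3g* likewise (37334 ± 6327 and 14969 ± 5430). *Agr2* (1117 ± 365 and 934 ± 291) and *Itln1* (159.9 ± 50.1 and 120.1 ± 46.0) overlapped between the finer clusters. The 191 Secretory1 cells of finer cluster 11 had *Ces1f* at 125 ± 55.0, *Agr2* at 841 ± 303, *Reg3g* at 63493 ± 9791 and *Foxj1* at 1.32 ± 1.70 CPM. The *Ces1f* of these cells was thus below that of the Multiciliated1 cells in the same finer cluster and above that of Secretory1 as a whole.

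**Figure D2:**
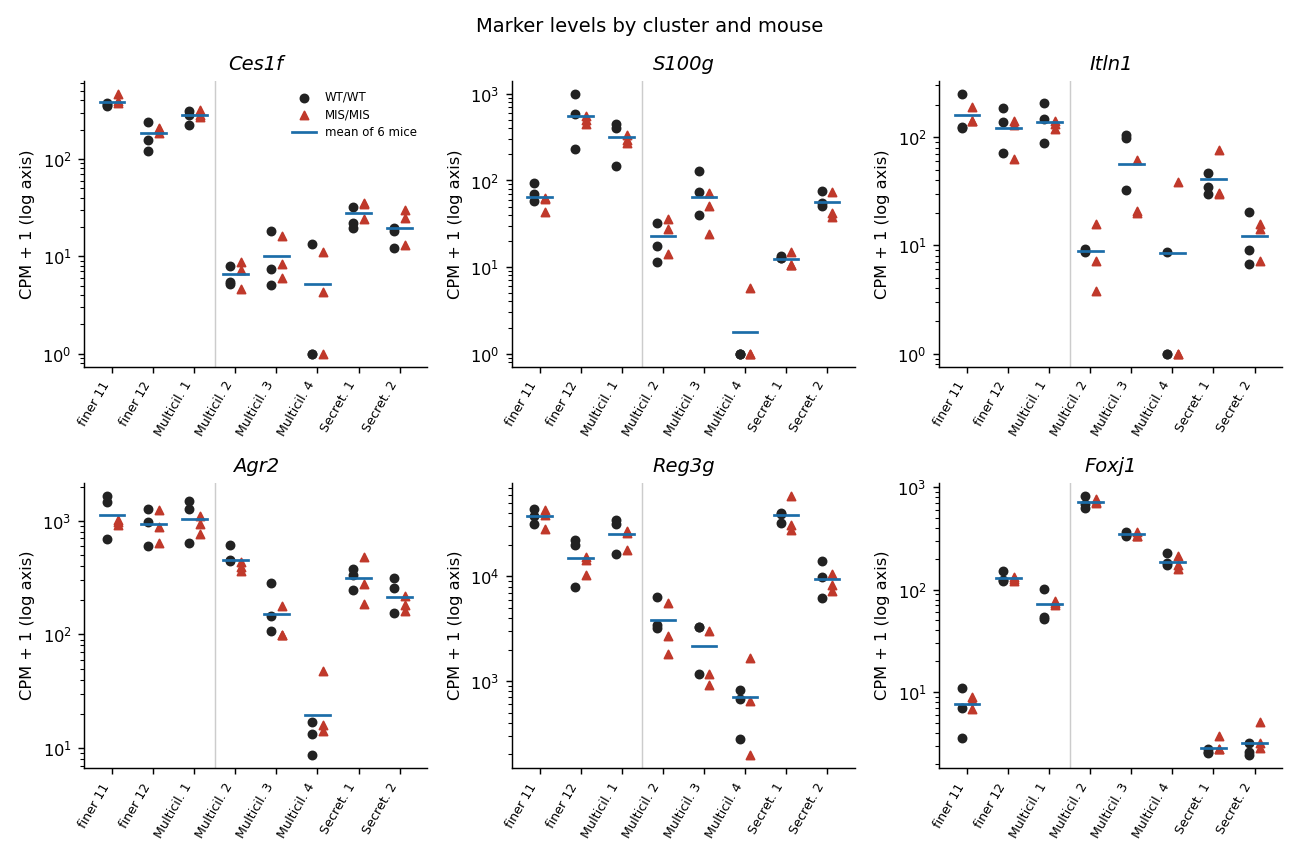
CPM + 1 (log axis) of the 6 marker genes in finer clusters 11 and 12 of Multiciliated1, in Multiciliated1 and in the other multiciliated and secretory clusters. Circles are *WT/WT* mice, triangles *MIS/MIS* mice and bars the mean of the 6: *Ces1f* stands above the other clusters in both finer clusters, whereas *Foxj1* has a mean of 6.63 CPM in finer cluster 11 and 129 in finer cluster 12.

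The promoters of *S100g* and *Agr2* are shown because the former was high mainly in the finer cluster with axonemal transcripts and the latter in both. They are the 250 bases before the annotated start, 5′ to 3′ on the gene's strand, from RefSeq on GRCm38.p6. The *S100g* window lies at chrX:162964600-162964849 on the minus strand, and the *Agr2* window at chr12:35992675-35992924 on the plus strand.
S100g: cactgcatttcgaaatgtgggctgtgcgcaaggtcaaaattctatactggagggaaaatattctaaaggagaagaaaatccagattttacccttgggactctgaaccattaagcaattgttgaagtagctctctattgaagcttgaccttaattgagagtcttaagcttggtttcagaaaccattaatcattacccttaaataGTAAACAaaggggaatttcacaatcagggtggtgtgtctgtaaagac
Agr2: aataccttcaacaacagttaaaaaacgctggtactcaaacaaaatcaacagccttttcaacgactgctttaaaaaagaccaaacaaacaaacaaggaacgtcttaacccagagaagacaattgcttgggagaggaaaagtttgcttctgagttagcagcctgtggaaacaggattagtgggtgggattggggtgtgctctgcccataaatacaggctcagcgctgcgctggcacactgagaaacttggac

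The capitals mark the forkhead letters TGTTTAC, read on the minus strand of the window as GTAAACA, whose first base lies 47 bases before the *S100g* start. Both strands were searched for these letters and for GTTGCCA, a form of the site of RFX factors, which also act on cilium genes. The forkhead letters occurred in 3.17% of the 32851 promoters in the table and in 1 of 48 promoters (2.08%) of the axoneme list. The RFX letters occurred in 3.66% of all promoters, in 6 of 48 (12.5%) of the axoneme list and in neither window shown. Of the 6 markers, 4 have a promoter in the table, and *Itln1* and *Reg3g* held neither run of letters.

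Among 3035 genes with at least 50 CPM in Multiciliated1, 50 were higher there than in each of the other 15 clusters, and 6 by at least 2 times. Beside the 4 markers these were *Cyp2a5* and *Muc16*. *Cyp2a5*, a cytochrome P450 of xenobiotic metabolism, ranged from 1473 to 2974 CPM among the mice and its mean was 2.502 times that of Basal5. *Muc16*, a membrane-tethered mucin, ranged from 124 to 229 CPM (2.04 times Multiciliated3), and it was at 154 ± 48.6 in finer cluster 11 and 171 ± 43.2 in finer cluster 12. Its mice overlapped with those of Multiciliated3, where the highest had 173 CPM, although within each of the 6 mice Multiciliated1 was higher. *Lypd2*, a GPI-anchored protein, followed with 903 ± 135 CPM (1.98 times Basal5) and was also alike in finer clusters 11 (883 ± 215) and 12 (946 ± 115). The next 8 genes exceeded the second cluster by 1.24 to 1.78 times. They were *Slc7a2* (an amino acid transporter), *Cd36* (a fatty acid receptor), *Cbr3* and *Adh7* (carbonyl and retinol metabolism), *Serpinb11*, *Nampt* (NAD synthesis), *Prom1* and *Pglyrp1* (a bactericidal peptidoglycan-binding protein). These leads are of means. *Serpinb11* was above Secretory1 in 4 of 6 mice, *Pglyrp1* above Secretory1 in 5 of 6 and *Prom1* above Multiciliated3 in 5 of 6. *Ces1f* has close copies (*Ces1d*, *Ces1e* and *Ces1g*) and *Cyp2a5* has *Cyp2a4*, so reads that fit several copies make these levels uncertain.

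Against Multiciliated3, 10 genes had the largest ratios in Multiciliated1. *Cyp4a12b* was 46.5 times higher, *Cxcl15* 37.3, *Gabrp* 34.6, *Ces1f* 30.7, *Ltf* 29.8, *Trf* 28.9, *Ptges* 25.7, *Cybb* 20.5, *Krt15* 19.3 and *Scgb1a1* 17.4 times. *Ltf* and *Trf* encode the iron-binding proteins lactotransferrin and transferrin, *Cybb* an oxidase subunit, and *Krt15* a keratin of basal cells. Each was higher in all 6 mice, but 7 of the 10 stood above Multiciliated1 in Secretory1. *Ltf*, for example, was at 1470 ± 443 CPM in Multiciliated1, 3082 ± 306 in Secretory1 and 49.4 ± 30.4 in Multiciliated3. The 10 smallest ratios belonged to *CAAA01077340.1*, *Spata18*, *Gm21149*, *Kcnmb2*, *Syt5*, *Rp1*, *Ckb*, *6820408C15Rik*, *Timp4* and *Syne1*, which were 8.26 to 11.4 times higher in Multiciliated3.

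Against Secretory1, the 10 largest ratios, from 56.0 to 127, included axonemal and other cilium genes such as *Dnah5*, a heavy chain of the outer dynein arm (121 ± 29.6 CPM against 1.17 ± 0.602), *Tppp3* (692 ± 177 against 8.96 ± 3.74), *Spef2*, *Cfap77* and *Ccdc146*, beside *Serpinb12*, *Tmem212*, *Clca3b*, *Gm867* and *Fam81b*. The 10 smallest ratios were of *Spink1*, *Cd74*, *Bpifa1*, *Scgb3a1*, *Sult1c1*, *Pon1*, *Scgb3a2*, *Lcn2*, *Trf* and *Gm41715*, which were 9.17 to 27.7 times higher in Secretory1. *Scgb3a2*, a secretoglobin, ranged from 254 to 2599 CPM in Multiciliated1 and from 8834 to 22352 in Secretory1. *Bpifa1*, an antimicrobial surfactant protein of the airway, ranged from 181 to 1231 and from 8145 to 22128 CPM. The cluster thus held high *Reg3g*, *Agr2* and xenobiotic enzymes together with secretoglobins well below those of Secretory1. Against Secretory2 the secretoglobins were mixed. *Scgb3a2* (3036 CPM) and *Scgb1a1* (247) were higher in Secretory2 than in Multiciliated1 (1185 and 86.4), whereas *Scgb3a1* was lower (21.9 against 41.9).

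The gene lists compared Multiciliated1 with Multiciliated3 and Secretory1. Of 49 axoneme genes with at least 5 CPM in Multiciliated1, Multiciliated3 or Secretory1, 49 were lower than in Multiciliated3 by over 2-fold (median log2 ratio -2.21) and 46 were higher than in Secretory1 by over 2-fold (median 4.18). The medians over all 10872 genes at that level were -0.22 and 0.16. Of these 10872 genes, 557 were over 2-fold higher and 1494 over 2-fold lower than in Multiciliated3. Against Secretory1, 1252 were over 2-fold higher and 154 over 2-fold lower. All 10 measured dynein assembly factors were over 2-fold lower than in Multiciliated3 (median -2.03) and 9 were over 2-fold higher than in Secretory1. Of 21 secretory markers, 17 were over 2-fold higher than in Multiciliated3 and 1 lower (*Sec14l3*), and against Secretory1 6 were higher and 8 lower. Antimicrobial genes gave 12 of 14 higher than Multiciliated3, and 2 higher and 7 lower than Secretory1. Of the 24 carboxylesterases and xenobiotic enzymes, 15 were over 2-fold higher than in Multiciliated3 and 7 over 2-fold higher than in Secretory1, with 1 and 0 lower. The 17 genes of the secretory pathway and protein folding in the endoplasmic reticulum stayed near both clusters (medians -0.26 and -0.11), with *Agr2* the only one over 2-fold above Multiciliated3 and *Agr3* the only one over 2-fold below it. Markers of other cell types were counted at that level too, which any of these clusters could meet. They were 10 of 14 for basal cells and 7 of 10 for squamous and hillock cells. Of the basal genes, 5 were over 2-fold above Multiciliated3 and none below, and 2 above Secretory1 and 1 below. Of the squamous and hillock genes, 5 were above Multiciliated3, 2 above Secretory1 and none below either. Ionocytes had 1 of 7 (*Atp6v1c2*, at only 3.87 CPM in Multiciliated1) and tuft cells 2 of 8. Neuroendocrine cells, leukocytes and stromal and endothelial cells had none.

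Finer clusters 11 and 12 differed in cilium genes and in others. Of all 10872 genes at the level used above, 1254 were over 2-fold higher in finer cluster 12 and 93 over 2-fold lower. In finer cluster 12, 48 of the 49 axoneme genes were over 2-fold higher than in finer cluster 11 (median log2 ratio 3.70, against 0.20 over all 10872 genes). *Tppp3* ranged from 30.1 to 92.4 CPM among mice in finer cluster 11 and from 1030.2 to 1462 in finer cluster 12. *Dnah5* ranged from 4.56 to 12.0 and from 197 to 248 CPM, and *Rsph1*, a radial spoke head protein, from 28.7 to 41.5 and from 315 to 403. In none of these did mice of the finer clusters overlap, and in finer cluster 11 each lay above the highest mouse of Secretory1. All 10 dynein assembly factors were also over 2-fold higher in finer cluster 12 (median 2.27). Of the list of regulators of multiciliogenesis, 8 of 13 were over 2-fold higher in finer cluster 12. The 8 include *Tekt1*, which is also in the axoneme list and is counted in both. *Gmnc* was not higher there, and encodes geminin coiled-coil protein 1, an early factor in multiciliated fate. It was at 26.4 ± 15.9 CPM in finer cluster 11 and 25.2 ± 11.1 in finer cluster 12, with 10.2 ± 4.50 in Multiciliated3 and 13.6 ± 4.57 in Secretory1. *Mcidas*, its relative, was at 0.453 and 1.05 CPM.

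Secretory and defence genes moved less than axoneme genes and in both directions, with more of them over 2-fold lower than higher in finer cluster 12. Of 21 secretory markers, 3 were over 2-fold higher in finer cluster 12 and 4 lower (median -0.38). Of 14 antimicrobial and defence genes, some of which are also secretory markers, 3 were higher and 6 lower (median -0.46). Over all 10872 genes, 1254 were higher and 93 lower. *Ltf* was at 2405 ± 549 CPM in finer cluster 11 and 525 ± 169 in finer cluster 12, and *Cybb* at 939 ± 232 and 331 ± 145. *Bpifa1* ran the other way, with 288 ± 202 and 1359 ± 809 CPM. *Sec14l3*, counted here as a secretory marker, was at 265 ± 71.1 and 983 ± 150.1 CPM and was highest of these sets in Multiciliated3 (1489 ± 203). *Scgb3a2* (1334 ± 1208 and 1171 ± 808) varied more among mice than between the finer clusters. Basal markers were over 2-fold higher in finer cluster 12 for 6 of 10 genes, with *Krt5* at 6.33 and 36.8 CPM, whereas *Krt15* was higher in finer cluster 11 (3044 ± 590.3 against 1596 ± 344).

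**Figure D3:**
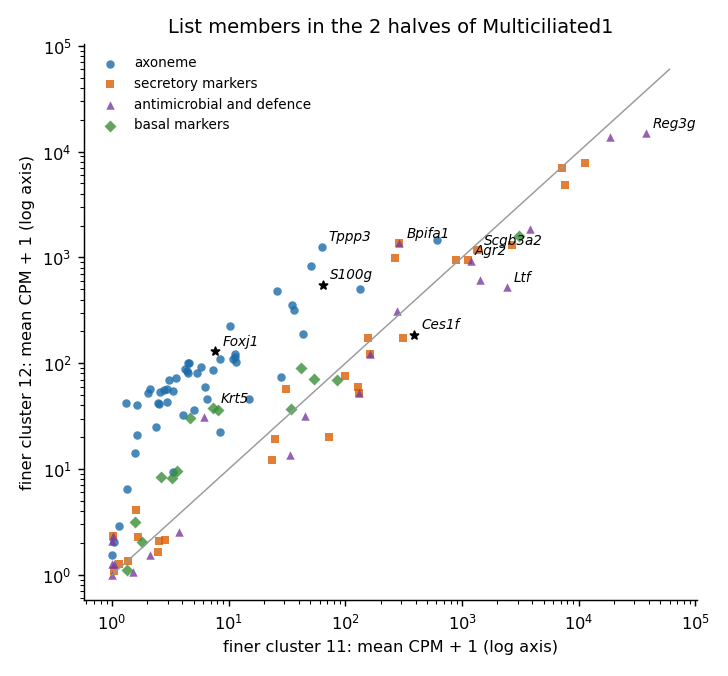
Mean CPM + 1 over 6 mice in finer cluster 12 against finer cluster 11 (both log axes), for genes of 4 lists and, as stars, for *Foxj1*, *S100g* and *Ces1f*. The line marks equal levels: 48 of 49 axoneme genes lie over 2-fold above it, while secretory, defence and basal genes lie on either side.

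Whether both kinds of transcript occurred in the same cells was read after each cell had been thinned to 5000 UMIs. None of the 1108 cells was shallower. In finer cluster 12, *Tppp3* was detected in 93.6% of cells, *Agr2* in 68.5% and both in 64.8% ± 5.51 (mean ± SD over 6 mice). The product of the shares was 63.8%, but with *Tppp3* in nearly all cells the joint share could not lie far from it. In Multiciliated3 *Tppp3* and *Agr2* were found together in 26.5% ± 8.14 of cells. For *Tppp3* with *Scgb3a2* the joint shares were 34.3% in finer cluster 12 and 19.2% in Multiciliated3, and with *Reg3g* 85.9% and 69.3%. *Tppp3* and *Ces1f* were found together in 30.8% ± 5.99 of cells, against 3.15% ± 1.39 in Multiciliated3. After the same thinning, shares in Basal1 cells, which should lack these genes, were 2.96% for *Tppp3*, 8.44% for *Agr2* and 0.981% for *Ces1f*. *Scgb3a2* was detected in 24.3% and *Reg3g* in 47.4% of Basal1 cells, so the joint shares with these genes stand on a higher background. Before thinning, the median Basal1 cell had 28982 UMIs. In finer cluster 11, *Tppp3* was detected in 14.96% ± 2.46 of cells, above 4.80% in Secretory1. *Foxj1* was detected in 1.99% ± 1.63, below the 2.27% of Basal1 and above the 0.940% of Secretory1, whereas finer cluster 12 had 44.2% ± 4.16. Since it did not exceed the share in Basal1, it is not read as expression. Without thinning, the shares of *Foxj1* were 14.7% and 88.3% in finer clusters 11 and 12, 11.9% in Basal1 and 6.41% in Secretory1. Cells with more than 7500 genes made up 11.1% ± 6.56 of Multiciliated1 per mouse, 6.36% ± 4.51 of Multiciliated3 and 2.70% ± 2.69 of Secretory1. Under the stated cell filters, which left 1038 cells, the axonemal medians were 3.84 in finer cluster 11 and 59.95 in finer cluster 12.

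The genotypes were then compared with the mouse as the unit. Multiciliated1 made up 2.89%, 2.56% and 3.54% of the cells of the *WT/WT* mice and 2.80%, 3.25% and 9.002% of those of MT1301, MT1306 and MT1383. The means of 2.99% ± 0.497 and 5.02% ± 3.46 (n = 3 each) gave p = 0.6 in an exact permutation test (two-sided; 3 mice against 3 cannot go below 0.1). MT1383 lay apart, and without it the difference fell from 2.03 to 0.0351 percentage points. Among the 4823 multiciliated cells the cluster took 22.6% ± 1.84 and 19.6% ± 7.59 (exact p = 0.5), a difference of -3.03 percentage points that was 0.0722 without MT1306 and -7.26 without MT1383. Median UMIs per cell were 44316 ± 8052 and 38394 ± 9286 (exact p = 0.5). Finer cluster 12 made up 37.8%, 64.5% and 43.9% of the Multiciliated1 cells of the *WT/WT* mice and 56.6%, 57.5% and 55.0% of the *MIS/MIS* mice (exact p = 0.4). Over the 24 exact tests made, Benjamini-Hochberg adjustment left no p below 0.4.

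For gene levels, the UMIs of all cells of the cluster were added up within each mouse and compared with limma's voom test, with adjustment over all 11446 genes tested. The sums held between 3921889 and 16687586 UMIs on these genes, the most in MT1383. *Dnaaf5* itself, transcribed from the missense allele in *MIS/MIS* mice, was at 18.3, 18.6 and 13.8 CPM in the *WT/WT* mice and at 23.8, 22.9 and 26.1 in the *MIS/MIS* mice. Its log2 fold change of 0.53 (SE 0.15) did not pass (limma adjusted p = 0.994). A missense allele need not change the transcript level, so this is no check of the labels.

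Only 1 gene passed at an adjusted p under 0.05 (0.00874% of those tested), and 454 (3.97%) had an unadjusted p under 0.05. *Wdfy1*, which encodes a phosphoinositide-binding protein of early endosomes, rose in *MIS/MIS* mice. It was at 22.1, 28.8 and 24.7 CPM in the *WT/WT* mice and at 83.2, 88.8 and 91.1 in the *MIS/MIS* mice, a log2 fold change of 1.77 (SE 0.11, limma adjusted p = 0.0008034, higher in 3 of 3 mice). It passed in finer cluster 11 alone (1.81) and in finer cluster 12 alone (1.68), a split chosen after the data were seen. After thinning to 5000 UMIs it was 1.59 with a limma adjusted p of 0.152. The difference of this change between Multiciliated1 and Multiciliated3 was -0.19 (SE 0.11) and did not pass (limma adjusted p = 0.999). *Wdfy1* lies on chromosome 1 (79702262 to 79776143, minus strand, GRCm38), and *Dnaaf5* on chromosome 5 (139150223 to 139186510, plus strand).

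Other genes of low p whose mice did not overlap did not pass. The genotypes did not overlap for 895 genes (7.82%). Among those with higher values in *MIS/MIS* were *Tmem232* (10.2 ± 1.65 CPM in the *WT/WT* mice and 23.1 ± 2.72 in the *MIS/MIS* mice, log2 fold change 1.15, limma adjusted p = 0.372), *Cdhr4* (0.61), *Diras2* (1.45) and *Crip1* (0.72). Among those with lower values were the predicted gene *Gm47283* (41.1 ± 15.3 and 3.50 ± 3.99 CPM, -5.07, limma adjusted p = 0.218), *Sptssb* (-1.03), *Hpgds*, a prostaglandin D synthase (64.1 ± 15.9 and 31.8 ± 7.06 CPM, -1.14, limma adjusted p = 0.892), *Il18rap* (-1.14) and *Gadd45b* (-0.66). The marker genes had log2 fold changes between -0.23 (*Agr2*) and 0.13 (*Foxj1*), their mice overlapped, and none passed.

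**Figure D4:**
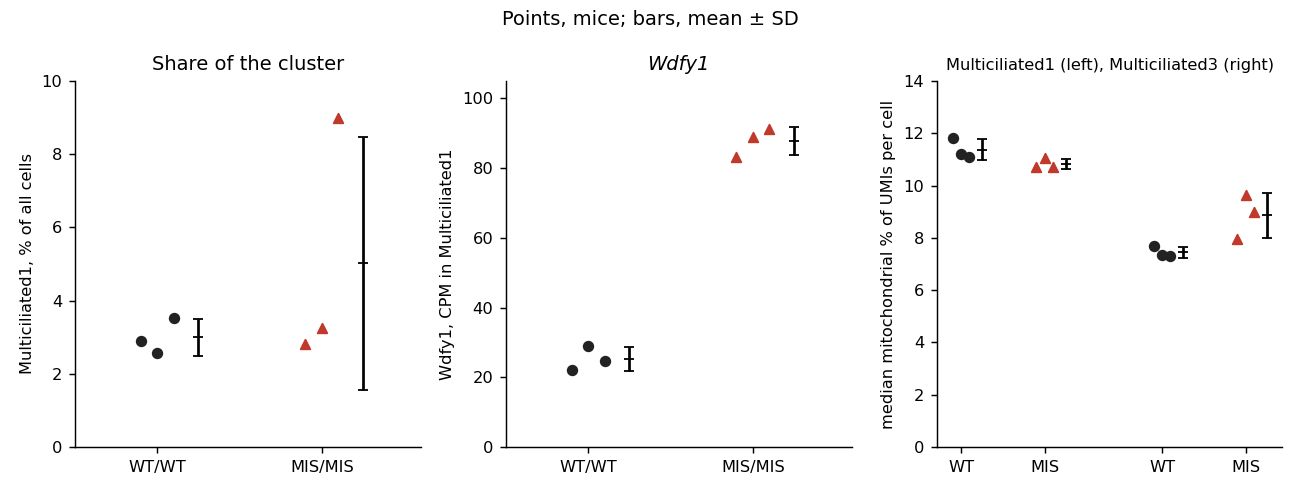
Multiciliated1 as a percent of all cells, *Wdfy1* in CPM within Multiciliated1, and the median mitochondrial percent of UMIs per cell in Multiciliated1 and Multiciliated3, for *WT/WT* (circles) and *MIS/MIS* mice (triangles) with mean ± SD. MT1383 holds the high share of 9.002%, and *Wdfy1* does not overlap between genotypes (highest *WT/WT* mouse 28.8, lowest *MIS/MIS* mouse 83.2 CPM).

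None of the 47 axoneme genes tested passed, yet 46 of them had higher values in *MIS/MIS* in the cluster as a whole, with a median log2 fold change of 0.23 against 0.01 over all genes. The genotypes did not overlap for 3 of the 47 (6.38%, against 7.82% of all genes). Taken within the finer clusters, the median was 0.04 over 21 genes in finer cluster 11 and 0.04 over 47 genes in finer cluster 12. The share of finer cluster 12 differed between the mice, and its part in the result for the list as a whole was not tested. *Tppp3*, picked after its values were seen, is 1 of the 47 genes and does not stand for the list. It was at 433 and 564 CPM in *WT/WT* mice 1 and 3, with shares of 37.8% and 43.9%. *WT/WT* mouse 2, with 64.5%, had 953, and the *MIS/MIS* mice, with 55.0% to 57.5%, had 716 to 751. Without *WT/WT* mouse 2 the median of the axoneme list was 0.45, and without *WT/WT* mouse 1 it was 0.13. The 13 genes tested of the regulator list, *Tekt1* among them, were all higher (median 0.37 in the cluster, 0.20 over 13 genes in finer cluster 12 alone). So were 9 of 10 dynein assembly factors (median 0.27, and 0.07 in finer cluster 12 alone). In finer cluster 11 alone the medians were 0.23 over 6 genes of the regulator list and 0.34 over 4 dynein assembly factors. None of these genes passed the threshold in the cluster as a whole.

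**Figure D5:**
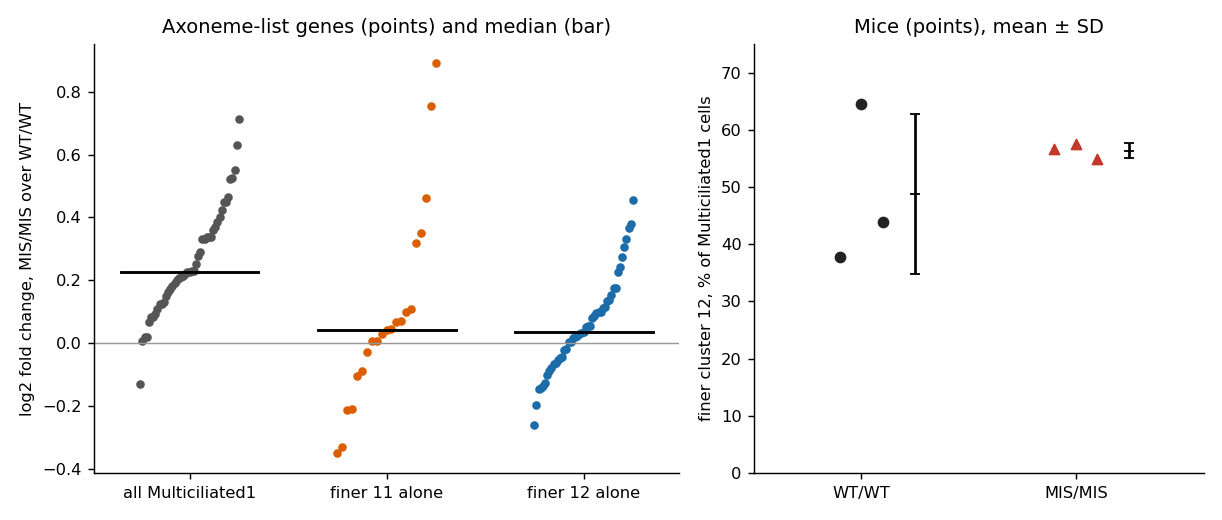
Left, log2 fold change (*MIS/MIS* over *WT/WT*) of each tested axoneme gene in all Multiciliated1 cells, in finer cluster 11 alone and in finer cluster 12 alone, with the median as a bar. The median is 0.23 in the whole cluster and 0.04 in either finer cluster. Right, finer cluster 12 as a percent of the Multiciliated1 cells of each mouse, with mean ± SD: *WT/WT* mice spread from 37.8% to 64.5% and *MIS/MIS* mice from 55.0% to 57.5%.

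In the other lists no gene passed either. Secretory markers split 11 higher and 9 lower (median 0.10), antimicrobial genes 7 and 7 (0.00), carboxylesterases and xenobiotic enzymes 9 and 15 (-0.06), secretory pathway genes 9 and 8 (0.02) and S100 genes 3 and 6 (-0.03). Of the 11 basal markers tested, 5 did not overlap between genotypes (45.5%, against 7.82% of all genes). *Krt5* was at 34.3, 29.996 and 23.6 CPM in the *WT/WT* mice and at 21.98, 10.8 and 16.8 in the *MIS/MIS* mice (log2 fold change -0.84). *Krt14* (-1.37), *Krt15* (-0.40) and *Col17a1* (-0.80) also had lower values, whereas *Pdpn* had higher ones (0.43). All 5 had a limma adjusted p of 0.994. The basal list as a whole had a median of -0.12, and of 0.03 in finer cluster 12 alone. Squamous and hillock markers had 1 gene higher and 7 lower (median -0.60), and their genotypes overlapped for all 8. Stress genes had 8 higher and 4 lower (median 0.03), and the genotypes did not overlap for 2 of the 12 (16.7%). Notch genes had 6 and 5 (median 0.14), with no overlap for 2 of the 11 (18.2%). Ionocyte, tuft, proliferation and stromal lists had 1 to 4 genes tested each, with medians of -0.13, 0.37, 0.03 and 1.34, and neuroendocrine and leukocyte lists had none.

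Whether the genotypes differed otherwise in Multiciliated1 than in Multiciliated3 was tested with an interaction term over 12740 genes, with each mouse as a term. No gene passed (0% of those tested; limma voom), and 555 (4.36%) had an unadjusted p under 0.05. The limma-trend fit also called none. The 3 genes with the lowest p were *Olfm4*, *Ifi27l2a* and *mt-Nd1*. *Olfm4* rested on few UMIs in Multiciliated1 (2.20 ± 1.97 and 2.34 ± 2.67 CPM) and on *WT/WT* mouse 1 in Multiciliated3 (37.3 CPM, next mouse 5.90), with a difference of 4.64 (SE 0.60, limma adjusted p = 0.0893). *Ifi27l2a*, an interferon-induced gene, differed by 1.80 (SE 0.28, limma adjusted p = 0.225), with mice of both genotypes overlapping in Multiciliated1.

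*mt-Nd1*, a mitochondrially encoded subunit of complex I, was at 5490.1 ± 10.1 CPM in Multiciliated1 of *WT/WT* mice and 5241 ± 412 of *MIS/MIS* mice, and at 4369 ± 235 and 5207 ± 471 in Multiciliated3 (difference -0.36, SE 0.06, limma adjusted p = 0.229). All 13 mitochondrially encoded genes tested differed in that direction, with a median of -0.30 against 0.01 over all genes. Within Multiciliated1 itself, *MIS/MIS* values were lower for 10 of these genes and higher for 3 (median -0.07 on the log2 scale). The median mitochondrial percent of UMIs per cell was 11.8, 11.2 and 11.1 in Multiciliated1 of the *WT/WT* mice and 10.7, 11.05 and 10.7 in the *MIS/MIS* mice. In Multiciliated3 it was 7.67, 7.36 and 7.29 in *WT/WT* and 7.95, 9.62 and 8.998 in *MIS/MIS*. The genotypes did not overlap in either cluster and the order was opposite (exact p = 0.1 in each, the smallest possible). The gap between the clusters was 3.94 ± 0.187 percentage points in *WT/WT* and 1.97 ± 0.698 in *MIS/MIS* (exact p = 0.1, Benjamini-Hochberg adjusted 0.4). In finer cluster 11 the medians were 12.1 ± 0.425 and 10.8 ± 0.678 percent (exact p = 0.1), and in finer cluster 12 10.4 ± 0.792 and 10.6 ± 0.407 (exact p = 0.9). Secretory1 had 11.6 ± 0.639 and 10.5 ± 0.461 percent (exact p = 0.1).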

How the data were processed

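Droplet scRNA-Seq reads had been run through Cell Ranger by the authors (7.1.0 on mm10 in the submitters' processing notes, another version in the methods) and the cells filtered and clustered in Seurat. The deposited tables hold raw UMI counts by gene and cell, and for each cell its cluster name, finer cluster number, UMI total and mitochondrial percent. They use a mistyped separator, so their unit was recorded as other, although every value was a whole number. The 3 *MIS/MIS* libraries carry animal numbers found in no sample title and were used as replicates of the genotype. P-values measure the spread between these mice.

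Counts were added up by mouse over Multiciliated1 (or Multiciliated3) cells. Genes were tested with at least 10 counts, for a median library, in 3 or more libraries and at least 15 in total. The voom test of limma 3.58.1 (R 4.3.3) was run with TMM factors (trims of 0.3 and 0.05) and Benjamini-Hochberg adjustment at 0.05. The median SD between mice of a genotype was 0.19 (log2). On simulated data with 200 genes changed 2-fold, the genotype comparison in Multiciliated1 recovered 80.5% of them at a dispersion of 0.02 (11294 genes) and 8.0% at 0.1 (11280 genes). The interaction recovered 37.5% (12497 genes) and 0% (12527 genes). Shares and medians were compared by exact permutation over mice, two-sided. Other steps used matplotlib 3.10.9, pandas 2.3.3, scipy 1.17.1 and numpy 2.4.6 under Python 3.11.15. The alternatives were other factors, filters and weights, each mouse left out, thinning to 5000 UMIs and the stated cell filters (2500 to 7500 genes, at most 25% mitochondrial).

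The cluster, its markers and the gene lists were chosen with earlier results of these data known. Genes were named by rule: the markers, the 15 leading the next cluster with at least 50 CPM, the 10 highest and 10 lowest ratios against Multiciliated3 and Secretory1, list members, and, for each direction of the genotype effect, those past the threshold or else the 5 of lowest p without overlap, and the 3 of lowest p for the interaction. Single members of lists, the mitochondrial genes and the promoter letters were picked after their values were seen. Gene positions come from GENCODE M21 (GRCm38) and promoters from RefSeq.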

Additional observations from a re-analysis of the deposited data

Results flagged for a closer look

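The genotype difference in mitochondrial percent ran in opposite directions in the clusters compared. The median per cell was lower in every *MIS/MIS* mouse than in every *WT/WT* mouse in Multiciliated1 and higher in every *MIS/MIS* mouse in Multiciliated3. The difference between these effects was -1.97 percentage points (exact permutation test, p = 0.1, the smallest that 3 against 3 mice allow). It was -2.68 with finer cluster 11 in place of Multiciliated1 (exact p = 0.1) and -1.30 with finer cluster 12 (exact p = 0.3). After thinning of each cell to 5000 UMIs, 12 genes were past the threshold of limma's interaction test. Of these, 8 were mitochondrially encoded and lower, out of 13 mitochondrially encoded genes tested. The number of all genes tested after thinning is not given for the interaction, so no share over all genes stands beside these counts. Among the 8 were *mt-Co3* (-0.37, limma adjusted p = 6.84e-06) and *mt-Atp6* (-0.41, limma adjusted p = 6.84e-06). Without thinning their limma adjusted p was 0.335 and 0.393, and none of 12740 genes passed.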

How the results depend on the processing

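*Wdfy1* was the only gene called higher in *MIS/MIS* Multiciliated1 cells, and no gene was called lower, with upper-quartile factors, without the low-count filter, with at least 10 counts in every library, with limma-trend, under the stated cell filters, without any 1 mouse (1 to 1 higher, 0 to 0 lower) and in finer clusters 11 and 12 alone. Thinning to 5000 UMIs, which left 6511 genes, called 0 (287 at an unadjusted p under 0.05). The interaction called 0 genes in either direction under the other settings, whereas thinning called 3 higher (*Lcn2*, *Sprr2a3*, *Nfkbia*) and 9 lower, and without 1 mouse each the counts ranged from 0 to 1 higher and from 0 to 3 lower (1 higher without *WT/WT* mouse 3, and 1 higher and 3 lower without MT1301). The difference in the share of multiciliated cells (-3.03 percentage points) became 0.956 with pooled cells and ranged from -7.26 to 0.0722 without 1 mouse, the sign turning without MT1306. The share of all cells ranged from 0.0351 to 3.13 and median UMIs from -10566 to -561. Log2 fold changes of the markers changed sign without 1 mouse for *Ces1f* (-0.078 to 0.18), *S100g* (-0.52 to 0.28), *Itln1* (-0.47 to 0.17), *Agr2* (-0.63 to 0.018), *Reg3g* (-0.56 to 0.0095) and *Foxj1* (-0.050 to 0.43), and *Foxj1* was -0.092 in finer cluster 12 alone. The cause was not tested in any of these. No paired analysis was possible because the mutant libraries carry animal numbers and no replicate number of the labels. Finer clusters 11 and 12 alone, and the filters on marker levels and medians, were chosen after the data were seen. With 3 mice a genotype, the simulated interaction recovered 37.5% of 2-fold changes at a dispersion of 0.02 and 0% at 0.1. The simulated sums of both clusters were drawn independently from the same mean profile, without a mouse effect, unlike the real sums. A count of 0 in the interaction therefore does not show that no gene differed.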
